A study of Homo sapiens with 12 samples.

Results

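The transcripts of 9 cytokine genes were followed here in HK-2 cells: TNF, the interleukin-6 family genes IL6, IL11 and LIF, the interleukin-1 genes IL1A and IL1B, and the colony-stimulating factor genes CSF1, CSF2 and CSF3. They were chosen by name, and the table of 26334 gene symbols held a row for each of the 9. HK-2 is an immortalized human proximal tubule epithelial line, and its cells had been given a PRCC-TFE3 fusion gene switched on by doxycycline, the oncogene of a translocation renal cell carcinoma. Poly(A) RNA was sequenced after 48 h from 12 libraries in 4 groups of 3: DMSO (no Dox, no inhibitor), Dox (doxycycline without inhibitor), inhibitor (MSC2530818 at 100 nM, which blocks the Mediator kinases CDK8 and CDK19, without Dox) and Dox plus inhibitor. Cells of all 4 groups carried the inducible construct and were kept under puromycin and blasticidin S, and no group received Dox without the construct, so effects of the fusion protein and of Dox itself cannot be told apart. The labels do not say whether the line is 1 clone.

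TNF is a trimeric cytokine that signals through the receptors TNFR1 and TNFR2 to NF-kB and cell death pathways. IL-6, IL-11 and LIF share the signal-transducing chain gp130 (gene IL6ST), which activates JAK kinases and STAT3. For these ligands gp130 acts with IL6R, IL11RA and LIFR, respectively. IL-1 alpha and IL-1 beta act through IL1R1 and IL1RAP, and M-CSF (CSF1), GM-CSF (CSF2) and G-CSF (CSF3) drive the growth and survival of macrophages, granulocytes and their precursors. Injured tubule epithelium is a known source of several of these factors. Their mRNAs are short-lived, in part because AU-rich elements in the 3′ untranslated region recruit decay proteins such as ZFP36.

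The promoters of the 4 tested genes with an entry in the RefSeq table are shown. They were picked after the values were seen, with TNF, IL6 and CSF2 higher and IL11 lower under the inhibitor. The table held 6 of the 9 genes, and LIF, CSF1 and CSF3 had no entry. Each line gives the 250 bases before the annotated start site, 5′ to 3′ on the strand of the gene (GRCh38.p14), with motif matches in capitals as they read on that strand.
TNF: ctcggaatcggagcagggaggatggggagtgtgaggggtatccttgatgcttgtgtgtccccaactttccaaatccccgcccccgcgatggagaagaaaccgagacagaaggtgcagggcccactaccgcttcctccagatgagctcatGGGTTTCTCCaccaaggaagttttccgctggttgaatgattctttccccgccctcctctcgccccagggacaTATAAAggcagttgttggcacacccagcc
IL6: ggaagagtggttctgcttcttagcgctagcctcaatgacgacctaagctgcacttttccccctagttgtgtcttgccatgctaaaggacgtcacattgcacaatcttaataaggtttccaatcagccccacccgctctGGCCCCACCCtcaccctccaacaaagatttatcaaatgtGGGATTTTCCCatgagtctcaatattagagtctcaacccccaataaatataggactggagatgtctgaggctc
CSF2: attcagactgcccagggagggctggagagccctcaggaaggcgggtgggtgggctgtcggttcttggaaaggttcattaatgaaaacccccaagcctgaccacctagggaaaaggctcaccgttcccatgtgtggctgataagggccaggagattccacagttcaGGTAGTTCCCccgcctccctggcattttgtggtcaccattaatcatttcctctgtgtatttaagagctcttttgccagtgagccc
IL11: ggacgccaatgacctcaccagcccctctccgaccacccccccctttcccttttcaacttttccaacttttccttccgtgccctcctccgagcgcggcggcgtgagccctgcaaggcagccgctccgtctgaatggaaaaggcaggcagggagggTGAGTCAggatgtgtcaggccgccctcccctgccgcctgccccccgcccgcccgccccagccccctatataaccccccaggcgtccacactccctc
The windows lie at chr6:31575315-31575564 (plus strand) for TNF, chr7:22726950-22727199 (plus) for IL6, chr5:132073539-132073788 (plus) for CSF2 and chr19:55370464-55370713 (minus) for IL11. Both strands were searched for 4 motifs: a kappa B-like pattern (GGG and CC separated by any 5 bases), the AP-1 site TGANTCA, the E-box CACGTG bound by MiT/TFE factors, and the TATA box TATAAA. The kappa B-like pattern was found in TNF (GGGTTTCTCC, -101 to -92 from the start site), in IL6 at 3 places, of which GGGATTTTCC (-73 to -64) and GGATTTTCCC (-72 to -63) overlap and GGCCCCACCC lies at -112 to -103, and in CSF2 (GGTAGTTCCC, -85 to -76). It was absent from the IL11 window, which held an AP-1 match (TGAGTCA, -96 to -90). The window of IL1A, a gene not tested, also held an AP-1 match (TGACTCA, -12 to -6) and no kappa B-like match. That of IL1B, also not tested, held no match. TNF also had a TATA match (-29 to -24), and the E-box was in none of these 4 windows. Of 35116 promoters in the table, 54.4% held the kappa B-like pattern, 6.57% the AP-1 site, 6.34% the E-box and 10.7% the TATA box in a window of the same length. The kappa B-like pattern is thus common, and a match describes letters only.

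AU-rich motifs were counted in the 3′ untranslated regions (longest one annotated per gene in GENCODE v29). The AU-rich pentamer ATTTA occurred 9 times in TNF, 6 in IL6, 9 in IL11, 7 in LIF, 5 in IL1A, 6 in IL1B, 4 in CSF1, 8 in CSF2 and 7 in CSF3. The overlapping nonamer ATTTATTTA occurred 3 times in TNF, 3 in IL11, 2 in IL1B and 4 in CSF2, and 0 times in the other 5 genes. In 11272 tested genes with such a region, 7.83% held the nonamer. The pentamer was not counted over all tested genes. TNF and IL11 had the same counts of both motifs, in regions of 799 and 1618 bases. The part of these motifs in the cytokine results was not tested.

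Values are FPKM (fragments scaled to transcript length and to library size) as deposited, and changes are differences of log2(FPKM + 1) with their SE, tested with limma over 12649 genes with an FPKM of at least 1 in at least 3 libraries. Of the 9 cytokine genes 6 were tested, and IL1A, IL1B and CSF3 did not reach this minimum. Library sums ran from 429208 to 473950 FPKM, and the total number of reads is not given. On the log2(FPKM + 1) scale the change of a weakly expressed gene is understated, so ratios of group means are given beside it. Among all tested genes, the median change for the inhibitor against DMSO was -0.12 as deposited and -0.01 after median-ratio scaling, and the shifts in the other comparisons were smaller. Called genes were higher in 59.2% of cases for Dox against DMSO (41.6% with median-ratio scaling and 43.4% with quantile normalization), in 66.7% for Dox with the inhibitor in both arms (33.7% and 41.3%), in 30.8% for the inhibitor against DMSO (54.9% and 49.3%) and in 35.3% for the inhibitor with Dox in both arms (54.1% and 50.3%).

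The cell type was checked against fixed markers. Of 12 proximal tubule genes, 3 were tested, among them PAX8 (92 ± 8.27 FPKM in DMSO) and GGT1 (36.33 to 51.23 over the 12 libraries). The transport genes LRP2, CUBN, AQP1 and SLC34A1 stayed below 0.5 FPKM. Epithelial keratins were abundant, with KRT8 at 295 ± 30.4 and KRT18 at 209 ± 17.8 FPKM in DMSO, while CDH1 reached at most 0.01 FPKM. Of 10 leukocyte markers, 8 stayed below 1 FPKM in every library, TYROBP and MS4A1 were listed at 0 throughout, FCER1G reached 1.38 in 1 library and CD68, also a lysosomal gene of other cells, was the only one tested. The summed leukocyte markers, nearly all CD68, ran from 34.7 to 43.1 FPKM in DMSO, 53.6 to 59.3 in Dox, 25.8 to 31.6 in inhibitor and 30 to 34.7 in Dox plus inhibitor. The pan-leukocyte gene PTPRC was at or near 0 in all 12 libraries. The 5 endothelial markers summed to at most 0.32 FPKM. Of 5 fibroblast markers, LUM and COL1A1 were tested, and the sum ran from 4.74 to 7.03 FPKM in the groups other than Dox and from 10.6 to 11.9 in Dox. LUM, an extracellular matrix proteoglycan gene, rose with Dox by 1.45 ± 0.23 (adjusted p = 0.0012). Of 6 tested epithelial markers, 5 were lower with Dox (against 7.31% of all tested genes) and 4 lower with Dox under the inhibitor (6.06%). With the inhibitor 4 were higher both without Dox (11.7%) and with it (11.3%). CDH2 was among those lower with Dox (-0.26) and higher with the inhibitor (0.71 without Dox and 0.85 with it). EPCAM was called in none of these comparisons. The sum of the 7 listed was 615 to 703 FPKM in DMSO, 482 to 502 in Dox, 757 to 887 in inhibitor and 586 to 627 in Dox plus inhibitor. The part of these marker changes in the cytokine results was not tested.

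TNF (chromosome 6, 31575567 to 31578336, plus strand, GRCh38) had the lowest mean of the 6 tested genes in DMSO and the largest response to the inhibitor. TNF stood at 5.64, 4.87 and 4.76 FPKM in DMSO, 2.33, 3.33 and 2.88 in Dox, 31.11, 30.37 and 31.08 in inhibitor, and 13.91, 17.16 and 15.74 in Dox plus inhibitor. In bulk RNA, fewer cells making a transcript and less of it per cell cannot be told apart. The 4 groups did not overlap in TNF, and the order from low to high was Dox, DMSO, Dox plus inhibitor, inhibitor. The inhibitor raised TNF by 2.39 ± 0.1 without Dox (adjusted p = 4.1e-08), a ratio of means of 6.06 and the 7th largest rise among the 12649 genes. With Dox in both arms it rose by 2.11 ± 0.1 (adjusted p = 8.9e-08), a ratio of 5.48 and the 12th largest rise. Dox lowered TNF by 0.67 without the inhibitor (log2 change -0.67 ± 0.1, adjusted p = 0.00092) and by 0.94 with it (-0.94 ± 0.1, adjusted p = 0.00016). In ratios of means the Dox group stood at 0.559 of DMSO and the combined group at 0.506 of inhibitor. Even with Dox, TNF under the inhibitor remained 3.07 times its DMSO mean (1.45 ± 0.1, adjusted p = 3.8e-06).

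IL6 and LIF were the most abundant of the cytokine transcripts and followed one pattern. IL6, the acute-phase cytokine (chromosome 7, 22725884 to 22732002, plus strand), stood at 36.02, 34.4 and 38.95 FPKM in DMSO, 18.5, 23.38 and 18.61 in Dox, 51.02, 54.82 and 51.85 in inhibitor, and 31.32, 32.43 and 34.57 in Dox plus inhibitor. The Dox libraries were the lowest and the inhibitor libraries the highest, with no overlap with any other group, while DMSO and the combined group overlapped. IL6 fell with Dox (-0.83 ± 0.09, adjusted p = 6.2e-05) and also in the presence of the inhibitor (-0.67 ± 0.09, adjusted p = 0.00056), with ratios of means of 0.553 and 0.624. It rose with the inhibitor by 0.52 ± 0.09 without Dox (adjusted p = 0.00076) and by 0.68 ± 0.09 with Dox (adjusted p = 0.00013).

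LIF, a cytokine of stem cell maintenance and epithelial stress (chromosome 22, 30240447 to 30246851, minus strand), stood at 45.89, 43.53 and 40.46 FPKM in DMSO, 28.11, 28.4 and 27.07 in Dox, 63.74, 62.05 and 61.95 in inhibitor, and 45.76, 43.87 and 41.71 in Dox plus inhibitor. As for IL6, Dox and inhibitor lay at the extremes, and DMSO and the combined group overlapped. LIF fell with Dox by 0.62 without the inhibitor (-0.62 ± 0.06, adjusted p = 2.3e-05) and by 0.51 with it (-0.51 ± 0.06, adjusted p = 2e-04). It rose with the inhibitor by 0.52 ± 0.06 without Dox (adjusted p = 3.4e-05) and by 0.63 ± 0.06 with it (adjusted p = 8.6e-06). In DMSO LIF exceeded 85.4% and IL6 82.6% of the tested genes, whereas the other 4 tested cytokine genes exceeded 31.2% to 37.8%.

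IL11, a gp130 cytokine with a role in fibrosis (chromosome 19, 55364389 to 55370463, minus strand), departed from its relatives. IL11 stood at 7.44, 6.75 and 5.67 FPKM in DMSO, 1.72, 1.74 and 1.97 in Dox, 2.61, 2.97 and 2.24 in inhibitor, and 1.74, 1.54 and 1.33 in Dox plus inhibitor. Each treated library lay below each DMSO library, and the Dox and combined groups overlapped. Dox alone lowered IL11 to 0.273 of its DMSO mean (-1.43 ± 0.11, adjusted p = 5.5e-06), the 8th largest fall of all tested genes. The inhibitor alone lowered it to 0.394 (-1.08 ± 0.11, adjusted p = 1.9e-05), where IL6, LIF and TNF rose. With the inhibitor in both arms the Dox change was -0.51 ± 0.11 (adjusted p = 0.0092). With Dox in both arms the change with the inhibitor was -0.15 (95% confidence interval -0.38 to 0.08, adjusted p = 0.32). The combined group stood at 0.232 of the DMSO mean (-1.58 ± 0.11, adjusted p = 2.7e-06).

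**Figure D1:**
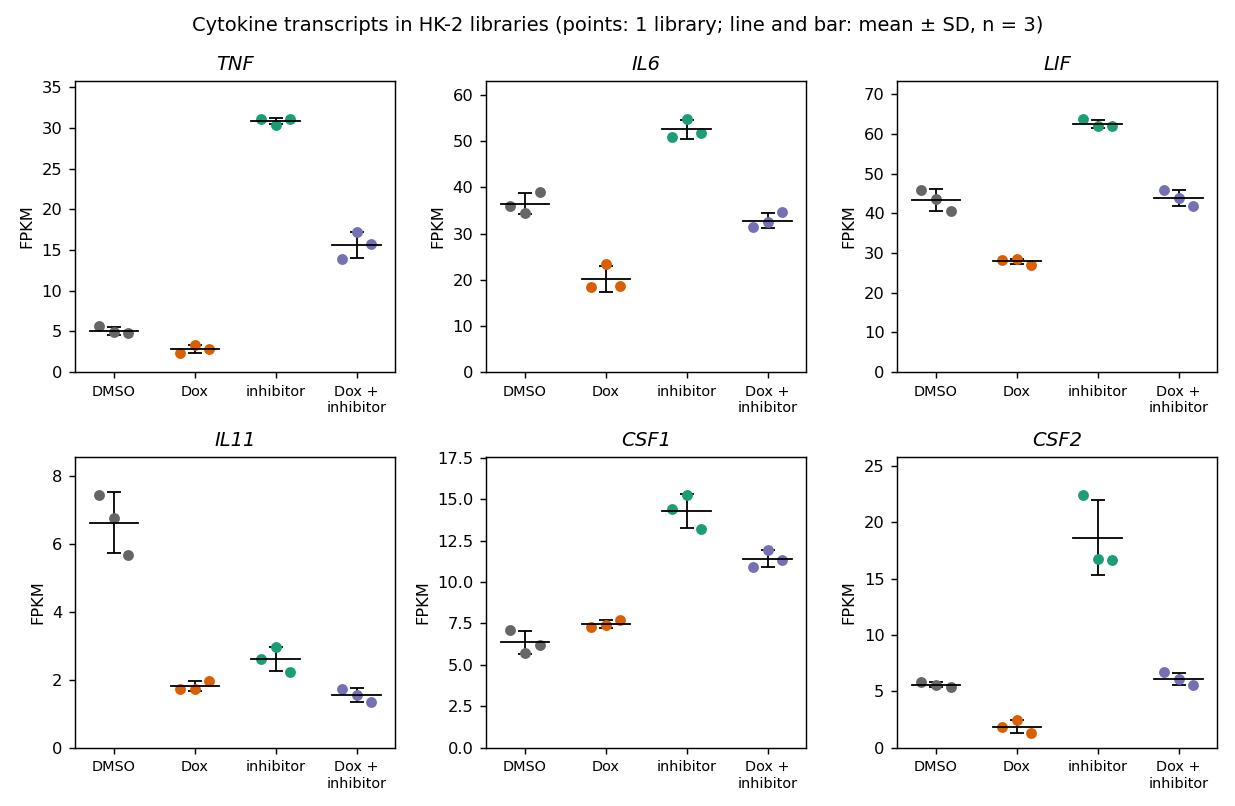
FPKM (linear axis from 0) of the 6 tested cytokine genes in each of the 12 libraries, with the mean and SD of the 3 libraries per group. TNF, IL6, LIF and CSF2 are highest in inhibitor and lowest in Dox, CSF1 is highest in inhibitor and lowest in DMSO, and IL11 is highest in DMSO.

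CSF2, the gene of GM-CSF (chromosome 5, 132073790 to 132076170, plus strand), fell more with Dox than all other tested cytokine genes but IL11 without the inhibitor, and more than all 5 others with it. CSF2 stood at 5.8, 5.59 and 5.36 FPKM in DMSO, 1.85, 2.44 and 1.28 in Dox, 22.46, 16.77 and 16.65 in inhibitor, and 6.7, 6.06 and 5.58 in Dox plus inhibitor. The Dox libraries were the lowest and the inhibitor libraries the highest, with inhibitor replicate 1 above the other two, and DMSO and the combined group overlapped. The ratio of means for Dox was 0.333 without the inhibitor (-1.22 ± 0.15, adjusted p = 0.00017) and 0.328 with it (-1.45 ± 0.15, adjusted p = 9.8e-05). These were the 14th and the 18th largest falls of all tested genes on the log2 scale. The inhibitor raised CSF2 by a ratio of 3.34 without Dox (1.56 ± 0.15, adjusted p = 1.2e-05) and 3.29 with Dox (1.33 ± 0.15, adjusted p = 4.6e-05).

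CSF1, the gene of M-CSF (chromosome 1, 109910242 to 109930992, plus strand), stood at 7.12, 5.72 and 6.22 FPKM in DMSO, 7.27, 7.38 and 7.73 in Dox, 14.42, 15.27 and 13.18 in inhibitor, and 10.92, 11.95 and 11.33 in Dox plus inhibitor. The Dox libraries lay just above the DMSO libraries, by 0.21 ± 0.08 on the log2 scale (95% confidence interval 0.03 to 0.38, adjusted p = 0.094), and both groups lay below the 6 libraries with inhibitor. The inhibitor raised CSF1 by 1.06 ± 0.08 without Dox (adjusted p = 2.1e-06) and by 0.55 ± 0.08 with it (adjusted p = 3e-04). With the inhibitor in both arms CSF1 fell with Dox (-0.3 ± 0.08, adjusted p = 0.024). That call ended when only the 2 groups were fitted (-0.3, adjusted p = 0.053) and without any one of inhibitor 1 (-0.29, 0.058), inhibitor 2 (-0.25, 0.085), Dox plus inhibitor 1 (-0.27, 0.062) or Dox plus inhibitor 3 (-0.3, 0.074), where the second value is the adjusted p.

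IL1A, IL1B and CSF3 were at or near 0 in all 4 groups. IL1A (chromosome 2, 112773915 to 112784590, minus strand) was above 0 in 11 of 12 libraries, with 0.07, 0.09 and 0.04 FPKM in DMSO, 0.1 in each of the 3 Dox libraries, 0, 0.02 and 0.04 in inhibitor, and 0.09, 0.18 and 0.02 in Dox plus inhibitor. IL1B, its neighbour on chromosome 2 (112829751 to 112836903, minus strand), was listed at 0.04 FPKM in 3 libraries, 1 each of DMSO, inhibitor and Dox plus inhibitor, and at 0 in the other 9. CSF3 (chromosome 17, 40015361 to 40017813, plus strand) was listed at 0.04 FPKM in 1 DMSO and 1 Dox library and at 0 in the other 10. The IL1A values in Dox lay above those in DMSO and in inhibitor without overlap, at a level where neither group reached 0.1 FPKM. These 3 genes were not tested, and no fold is given.

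Across the tested cytokine genes, Dox without the inhibitor lowered 5 of 6 (TNF, IL6, LIF, IL11 and CSF2), against 7.31% of all tested genes called lower. With the inhibitor in both arms Dox lowered 6 of 6, against 6.06% (767 genes). With the replicate number as a block 4548 genes were called in either direction in this comparison, against 2304 without it (18.2%), and the 6 calls were kept. The inhibitor without Dox raised 5 of 6 (TNF, IL6, LIF, CSF1 and CSF2) and lowered IL11, against 11.7% called higher, 26.3% called lower and 38% called in all. With Dox in both arms it raised the same 5 and lowered 0, against 11.3% called higher, 20.8% called lower and 32.1% called in all. The median log2 change of the 6 was -0.75 for Dox without inhibitor and -0.59 with it, beside 0.04 and 0.08 over all tested genes. For the inhibitor the medians were 0.79 without Dox and 0.66 with it, beside -0.12 and -0.08. The comparisons for Dox without and with the inhibitor share no libraries, and each inhibitor comparison shares libraries with both.

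The comparison of Dox plus inhibitor with DMSO shows where each transcript stood when both agents were present. TNF and CSF1 were higher (2 of 6, against 10.6% of all tested genes) and IL11 was lower (1 of 6, against 15%), and 25.6% of all tested genes were called. CSF1 stood at 1.79 times its DMSO mean (0.76 ± 0.08, adjusted p = 5.4e-05). The other 3 genes were not called: the change was 0.11 for CSF2 (95% confidence interval -0.21 to 0.43, adjusted p = 0.63), -0.15 for IL6 (-0.34 to 0.04, adjusted p = 0.23) and 0.02 for LIF (-0.11 to 0.14, adjusted p = 0.86). These intervals bound the difference and do not show equal levels.

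The interaction, the difference between the Dox effect in inhibitor-treated and in untreated cells (the former minus the latter), was called for 2 of the 6 genes, against 2.82% of all tested genes, namely IL11 (higher, as were 0.909% of all tested genes) and CSF1 (lower, as were 1.91%). For IL11 it was 0.93 ± 0.15 (adjusted p = 0.0068), the 31st highest value among all tested genes. For CSF1 it was -0.51 ± 0.11 (adjusted p = 0.033), a call that ended after quantile normalization (-0.5, adjusted p = 0.055) and without any one of 10 libraries, all except DMSO 1 and inhibitor 3 (-0.54 to -0.44, adjusted p = 0.054 to 0.1). The interaction was not called for TNF (-0.28, 95% confidence interval -0.59 to 0.04), CSF2 (-0.23, -0.68 to 0.22), IL6 (0.16, -0.1 to 0.43) or LIF (0.11, -0.06 to 0.28), with adjusted p from 0.44 to 0.73.

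**Figure D2:**
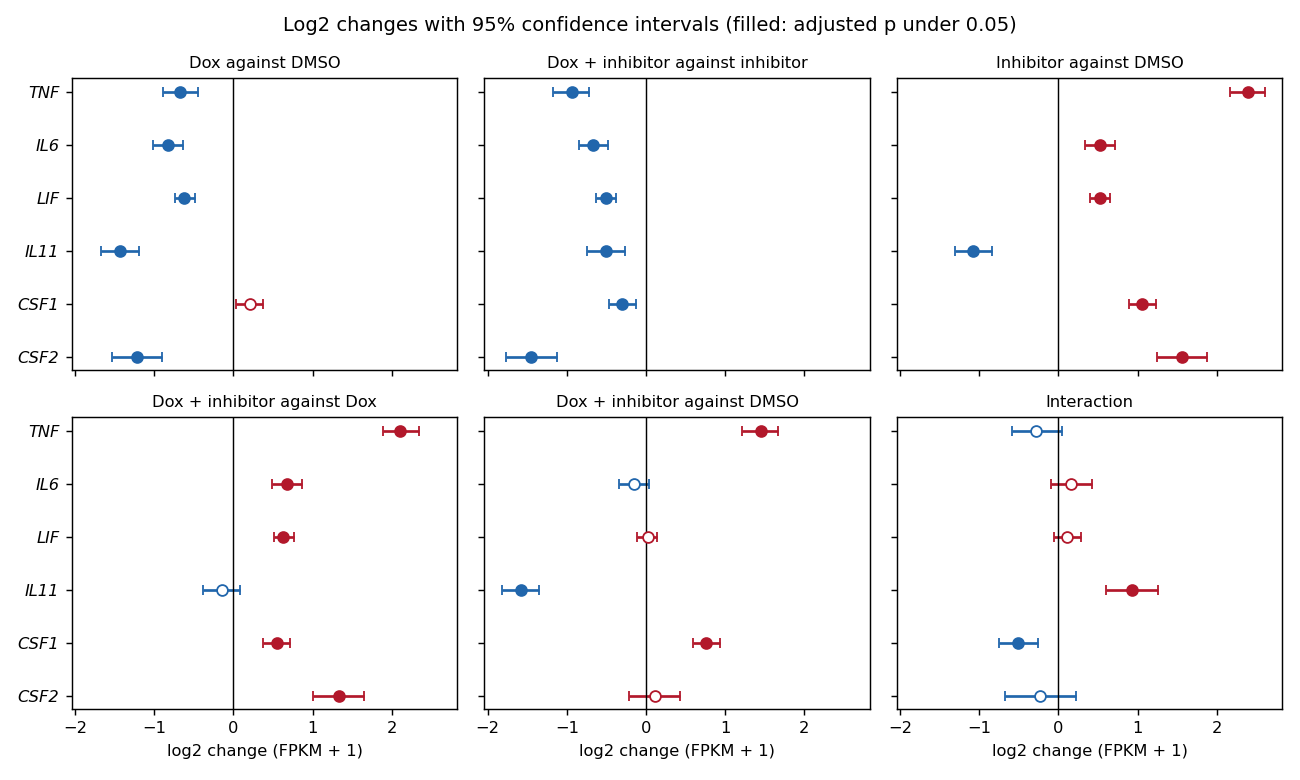
Log2 changes (horizontal axis, of FPKM + 1) of the 6 tested genes in 6 comparisons, with 95% confidence intervals and filled points for adjusted p under 0.05. The points for TNF lie at 2.39 and 2.11 for the inhibitor without and with Dox, and those for IL11 at -1.08 and -0.15.

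The order of the levels changed between groups. In DMSO LIF (43.3 ± 2.72 FPKM) was followed by IL6 (36.5 ± 2.31), then by IL11 (6.62 ± 0.892), CSF1 (6.35 ± 0.709), CSF2 (5.58 ± 0.22) and TNF (5.09 ± 0.479), and each neighbouring pair among the last 4 overlapped. In Dox, IL6 (20.2 ± 2.79) again followed LIF (27.9 ± 0.699), and CSF1 (7.46 ± 0.24) came before TNF (2.85 ± 0.501), CSF2 (1.86 ± 0.58) and IL11 (1.81 ± 0.139), of which TNF overlapped with CSF2 and CSF2 with IL11. In inhibitor the 6 did not overlap, and TNF (30.9 ± 0.419) came after LIF (62.6 ± 1.01) and IL6 (52.6 ± 2), ahead of CSF2 (18.6 ± 3.32), CSF1 (14.3 ± 1.05) and IL11 (2.61 ± 0.365). In Dox plus inhibitor the order was LIF (43.8 ± 2.03), IL6 (32.8 ± 1.65), TNF (15.6 ± 1.63), CSF1 (11.4 ± 0.519), CSF2 (6.11 ± 0.562) and IL11 (1.54 ± 0.205), without overlap.

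Genes with the most similar profile over the 12 libraries were named by Pearson r of log2(FPKM + 1), as a description that mainly reflects the 4 group means. For TNF these were FAM107B (0.996), TNS1 (0.996) and MEGF6 (0.995). For LIF they were MYC (0.998), PITPNM1 (0.995) and PMEPA1 (0.994), and for IL6 ZFP36L1 (0.977), CYP24A1 (0.976) and GJC1 (0.973). MYC is a growth-promoting transcription factor and ZFP36L1 a protein that binds AU-rich mRNAs. For CSF2 they were HAS3 (0.989) and GRB10 (0.988), for CSF1 ST6GAL1 (0.99), AGPAT4 (0.989) and CDCP1 (0.984), and for IL11 RAP2B (0.963) and SFXN2 (0.957).

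Receptors for these cytokines were expressed unevenly. TNFRSF1A, the gene of TNFR1, stood at 36.9 ± 1.36 FPKM in DMSO, 31.7 ± 0.981 in Dox, 24.5 ± 2.32 in inhibitor and 25.2 ± 1.01 in Dox plus inhibitor, and TNFRSF1B, the gene of TNFR2, stayed below 0.15 FPKM. TNFRSF1A thus moved opposite to its ligand under the inhibitor, with falls of 0.57 (-0.57 ± 0.07, adjusted p = 7.2e-05) without Dox and 0.32 (-0.32 ± 0.07, adjusted p = 0.0046) with Dox. Its call for Dox alone was at the threshold (-0.22, adjusted p = 0.049) and ended under 13 of the 23 alternatives (adjusted p = 0.051 to 0.16). Those were 4 settings with no filter, no intensity trend or a smaller pseudocount, and the omission of any one library other than DMSO 3, inhibitor 1 or inhibitor 3.

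IL6R, the IL-6 binding chain, stood at 7.34 ± 0.24 FPKM in DMSO, 9.16 ± 0.471 in Dox, 2.45 ± 0.223 in inhibitor and 2.74 ± 0.158 in Dox plus inhibitor. It fell with the inhibitor by 1.28 without Dox (-1.28 ± 0.07, adjusted p = 2e-07) and by 1.44 with it (-1.44 ± 0.07, adjusted p = 8.9e-08), while IL6 rose. Its rise with Dox (0.28, adjusted p = 0.015) ended after quantile normalization (0.21, adjusted p = 0.13) and without DMSO 2 (0.27, 0.061), Dox 2 (0.27, 0.061) or Dox 3 (0.26, 0.069). IL6ST, the shared gp130 chain, passed the threshold in no comparison and varied widely between libraries (9.3 to 23.37 FPKM in DMSO and 6.94 to 17.51 in inhibitor). LIFR, the LIF-binding chain, had group means from 1.89 to 2.85 FPKM and was called in none. IL11RA, the IL-11 binding chain, stood at 0.943 ± 0.197 FPKM in DMSO and 0.387 ± 0.0709 in inhibitor (-0.48, adjusted p = 0.016, and -0.4 with adjusted p = 0.051 without DMSO 1), and its rise with Dox under the inhibitor (0.47, adjusted p = 0.036) ended under 9 of 22 alternatives (0.34 to 0.5, adjusted p = 0.05 to 0.13). These were the fit of the 2 groups alone, quantile normalization and the omission of any one of DMSO 2, Dox 1, inhibitor 1 to 3, or Dox plus inhibitor 2 or 3. IL11RA reached 1 FPKM in only 4 of the 12 libraries and at most 0.45 in inhibitor. It thus passed the minimum only through the groups where it was higher, and these calls are no support for a change.

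IL1RAP, the shared accessory chain of IL-1 receptors, stood at 7.14 ± 0.865 FPKM in DMSO, 10.1 ± 0.475 in Dox, 4.97 ± 0.678 in inhibitor and 6.68 ± 0.609 in Dox plus inhibitor. It rose with Dox by 0.45 ± 0.1 (adjusted p = 0.011) and fell with the inhibitor by 0.45 (-0.45 ± 0.1, adjusted p = 0.0056) without Dox and by 0.53 (-0.53 ± 0.1, adjusted p = 0.0024) with it. With the inhibitor in both arms its rise with Dox (0.37, adjusted p = 0.033) ended under 9 alternatives (0.09 to 0.37, adjusted p = 0.055 to 0.32), among them median-ratio scaling (0.29) and removal of the length and GC trend (0.09), and the omission of inhibitor 1 (0.27), Dox plus inhibitor 2 (0.34) or Dox plus inhibitor 3 (0.32). The ligand-binding IL1R1 and the decoy receptor IL1R2 stayed below 0.3 FPKM. CSF1R, CSF2RA and CSF2RB, receptor chains of myeloid cells, stayed below 1 FPKM in every library, and CSF3R was listed at 0 in all 12.

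**Figure D3:**
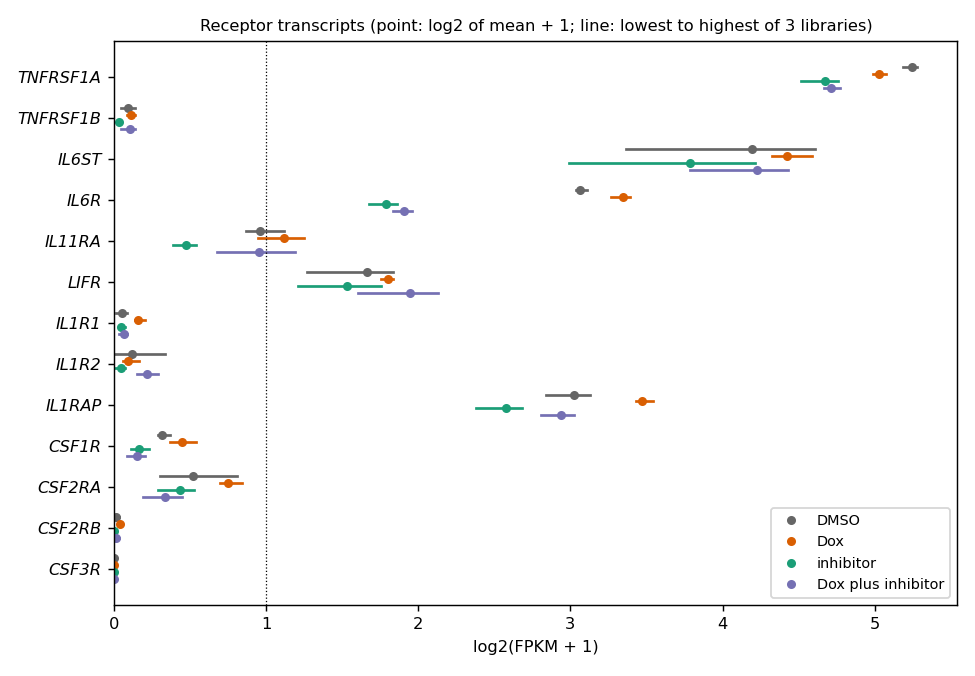
Levels of 13 receptor transcripts as log2(FPKM + 1), with a point for the group mean and a line from the lowest to the highest of 3 libraries, and a dotted line at 1 FPKM. TNFRSF1A and IL6R are lower in both groups with inhibitor, and the receptor genes of the colony-stimulating factors lie below the dotted line.

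The other genes of these pathways were taken from lists compiled from general knowledge. Of 13 tested genes for TNF receptors and proximal signalling, 2 were higher and 2 lower with Dox. Over all tested genes, 10.6% were higher and 7.31% lower with Dox, 12.2% and 6.06% with Dox under the inhibitor, 11.7% and 26.3% with the inhibitor alone, and 11.3% and 20.8% with the inhibitor in the presence of Dox. The counts of this and the following lists stand beside these shares. The adaptor genes TRAF5 (0.46) and TRAF2 (-0.4) and the TNF-shedding protease gene ADAM17 (0.28) were called beside TNFRSF1A. With Dox under the inhibitor 1 was higher (ADAM17 at 0.34) and 1 lower (TRAF2 at -0.41), and with the replicate block 7 were higher. The 2 ADAM17 calls ended with median-ratio scaling (0.22, adjusted p = 0.065, and 0.25, 0.053) and once a trend in transcript length and GC content was taken out (0.12, 0.17, and 0.09, 0.31). The first also ended without any one of DMSO 1 (0.24), DMSO 2 (0.31), Dox 1 (0.31), Dox 2 (0.25) or Dox 3 (0.3), and the second without Dox plus inhibitor 2 (0.29) or 3 (0.34). With the inhibitor alone 1 was higher (TRAF5 at 0.37) and 3 lower, TNFRSF1A and the TAK1-binding adaptor genes TAB2 (-0.5) and TAB1 (-0.28, a call that 6 of the 23 alternatives ended, both rescalings among them), and with Dox in both arms TNFRSF1A alone was lower. TRAF5 with the inhibitor was no longer called without inhibitor 2 (0.33) or inhibitor 3 (0.29). The list's median change was 0 with Dox and -0.08 with the inhibitor alone, beside 0.04 and -0.12 over all tested genes. Other gp130 ligands were scarce: of 8, 5 stayed below 1 FPKM and IL27 was listed at 0. The 2 tested were CLCF1 (cardiotrophin-like cytokine factor 1), with group means from 9.91 to 12.6 FPKM, and EBI3, a subunit shared by IL-27 and IL-35, with group means from 11.8 to 14 FPKM.

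Of 17 tested genes for IL-6 family receptors and JAK-STAT signalling, Dox raised 1 (IL6R) and lowered 1 (the kinase gene JAK1 at -0.29). Dox under the inhibitor raised 3 and lowered 1, the STAT3 feedback inhibitor gene SOCS3 (-0.68). IL11RA (0.47) and the oncostatin M receptor gene OSMR (0.3) were among the 3. With that trend taken out OSMR was no longer called (0.08), and after median-ratio scaling 2 were higher and 3 lower. The inhibitor without Dox raised 4 and lowered 7 of the 17 (4 and 4 after either rescaling), against 11.7% and 26.3% of all tested genes, with IL6R, the feedback inhibitor gene CISH (-1.18) and the transcription factor gene STAT5A (0.67) among those that changed most. The other 3 that rose were STAT5B (0.67), JAK1 (0.32) and the feedback inhibitor gene SOCS1 (0.55, ended by 7 of the 23 alternatives). With Dox in both arms the inhibitor raised STAT5B (0.76), JAK1 (0.53) and STAT5A (0.41) and lowered IL6R, CISH (-1.05) and SOCS3 (-0.84). CISH reached 1 FPKM in 6 libraries, all without the inhibitor, and at most 0.77 with it. It thus passed the minimum only through the groups where it was highest, and its calls are no support for a change. The limit given above for the IL11RA calls applies here too. STAT3 itself had group means from 36.5 to 40.4 FPKM and passed the threshold in no comparison. The list's median was 0.09 with Dox and -0.17 with the inhibitor alone.

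The called genes among the listed STAT3 and acute phase targets were all lower with Dox, without and with the inhibitor in both arms. In both of these comparisons most tested genes of the list were not called. With the inhibitor the called genes moved in both directions. Of 10 tested STAT3 and acute phase targets, Dox raised 0 and lowered 4, against 10.6% and 7.31% of all tested genes. The 4 were the transcription factor genes JUNB (-0.89), MYC (-0.74) and BCL3 (-0.59) and the kinase gene PIM1 (-0.38). Dox under the inhibitor raised 0 and lowered 4, against 12.2% and 6.06% of all tested genes. The 4 were JUNB (-0.77), the serum amyloid gene SAA1 (-0.76), SOCS3 (-0.68) and MYC (-0.56). The SAA1 call ended when the 2 groups were fitted alone (adjusted p = 0.055). BCL3 with Dox was no longer called without DMSO 1 (-0.49, adjusted p = 0.063) or Dox 1 (-0.5, 0.07). The inhibitor without Dox raised 5 (against 11.7% of all tested genes) and lowered 4 (against 26.3%). The former were SAA1 (0.75), MYC (0.57), the repressor gene BCL6 (0.54), PIM1 (0.37) and JUNB (0.31, ended by 5 of the 23 alternatives). SAA1 reached 1 FPKM only in the 3 inhibitor libraries (1.24 to 1.41) and at most 0.85 in the other groups. It thus passed the minimum only through the group where it was highest, and its calls are no support for a change. The 4 lowered were the C/EBP factor genes CEBPB (-1.01) and CEBPD (-0.76), the fibrinogen gene FGB (-0.75) and SOCS3 (-0.34, ended by both rescalings at -0.23). In the presence of Dox the inhibitor raised MYC (0.75), PIM1 (0.65), JUNB (0.43) and BCL6 (0.22, ended without Dox 1 or Dox plus inhibitor 2) and lowered CEBPB (-1.32) and SOCS3 (-0.84). CEBPB, which binds the IL6 promoter in other systems, had 17.9 ± 3.76 FPKM in DMSO, 17.7 ± 2.36 in Dox, 8.48 ± 2.64 in inhibitor and 6.45 ± 0.757 in Dox plus inhibitor, the reverse of IL6 under the inhibitor. The list's median was -0.09 with Dox and 0.02 with the inhibitor alone.

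In the IL-1 family, receptors and signalling list, 13 of 24 genes were tested. Dox raised 2, IL1RAP and TOLLIP (0.41), and lowered 1, the calpain gene CAPN2 (-0.42), which encodes a protease subunit. The TOLLIP call ended under 10 of the 23 alternatives (0.3 to 0.44, adjusted p = 0.05 to 0.12), including both rescalings and the omission of DMSO 2, DMSO 3, inhibitor 2 or any one Dox library. The kinase gene IRAK2, an IL-1 receptor signalling component, was raised by the inhibitor from 5.02 ± 0.2 to 17.2 ± 1.24 FPKM (1.6, adjusted p = 1e-07), and it stood at 4.48 ± 0.386 in Dox and 8.98 ± 0.673 in Dox plus inhibitor. IRAK2 thus shared with TNF its order of inhibitor, Dox plus inhibitor, DMSO and Dox, although its DMSO and Dox libraries overlapped. The inhibitor raised 3 and lowered 3 of the 13 without Dox (5 and 3 after either rescaling), against 11.7% and 26.3% of all tested genes, with IL18 and IL18BP at 0.62 each beside IRAK2, and CAPN2 (-0.48), IRAK4 (-0.46) and IL1RAP lower. In the presence of Dox it raised IRAK2 (0.86), IL18BP (0.37) and IL18 (0.22) and lowered IRAK4 (-0.65), IL1RAP and TOLLIP (-0.49). The calls of IL18BP and IL18 there ended under 3 and 2 of the 23 alternatives, each the omission of 1 library. Dox under the inhibitor lowered IRAK2 (-0.87), IL18 (-0.4) and IL18BP (-0.36, ended by 8 of the 23 alternatives) and raised IL1RAP. The list's median was 0.09 with Dox and 0.09 with the inhibitor alone.

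Of 15 genes listed as regulators of AU-rich mRNA decay, Dox lowered 3, the decay factor genes ZFP36L1 (-0.72) and ZC3H12A (-0.53) and the kinase gene MAPKAPK2 (-0.26), and raised 0. MAPKAPK2 was no longer called without DMSO 1 (-0.21), DMSO 2 (-0.26), Dox 1 (-0.26) or Dox 3 (-0.25). ZFP36L1 stood at 146 ± 3.29 FPKM in DMSO, 88 ± 0.627 in Dox, 193 ± 10.8 in inhibitor and 137 ± 2.3 in Dox plus inhibitor, the same order as IL6. The inhibitor raised 2 and lowered 6 of these 15 genes without Dox (4 and 3 after median-ratio scaling), against 11.7% and 26.3% of all tested genes, with HNRNPD (-0.59) and ZFP36 (-0.52) among the lower and ZFP36L1 (0.4) and ZC3H12A (0.29, ended by 4 of the 23 alternatives) higher. With Dox in both arms it raised 3 and lowered 5, with ZFP36L1 at 0.63, ZC3H12A at 0.52 and MAPKAPK2 at 0.2 (ended by 7 of the 23 alternatives) higher. The lower genes were HNRNPD (-0.4), ZFP36L2 (-0.37), KHSRP (-0.32), ZFP36 (-0.31) and ELAVL1 (-0.22, ended by 11 of the 23 alternatives). Dox under the inhibitor raised 2 and lowered 2 (0 and 3 after median-ratio scaling), ZFP36L1 at -0.49, ZC3H12A at -0.29, CNOT1 at 0.25 and TIAL1 at 0.2 (ended by 12 of the 23 alternatives and reversed by 2), and the calls of ZC3H12A and CNOT1 ended when the 2 groups were fitted alone (adjusted p = 0.064 and 0.079). The ZC3H12A call also ended when inhibitor 1 (-0.29), inhibitor 2 (-0.27), Dox plus inhibitor 2 (-0.33) or Dox plus inhibitor 3 (-0.22) was left out, and the CNOT1 call with median-ratio scaling (0.16), quantile normalization (0.23) or removal of the length and GC trend (0.1), and without Dox plus inhibitor 2 (0.25) or 3 (0.24). The list's median was 0.02 with Dox and -0.21 with the inhibitor alone.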

How the data were processed

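The authors deposited 1 table of FPKM values for 12 libraries, and per the submitters' processing notes Trim Galore 0.6.7, Salmon 1.9.0 and the builds GRCh38.p13 and hg38 were used, without stated roles. The annotation, the summing to genes and the use of strand were not stated. Columns were matched to samples by name, and groups came from the sample titles. Total reads are not in the table, so no counting intervals were calculated. Between 53 and 106 tested genes had identical values in 2 libraries of a group, and no library was a duplicate.

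Values were analysed as log2(FPKM + 1), with a pseudocount of 1 and no rescaling. Genes with FPKM of at least 1 in at least 3 of 12 libraries were tested. R 4.3.3 and limma 3.58.1 were used to fit 4 group means to the 12 libraries, leaving 8 residual degrees of freedom, and variances were moderated by empirical Bayes along an intensity trend. P-values are two-sided and Benjamini-Hochberg adjusted over 12649 genes, with calls at 0.05, and the script was tested on simulated data. The series' design text calls the replicates independent, and the labels do not say how they were grown apart, so p-values measure the spread between these samples.

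The cytokine genes and the pathway lists were chosen with earlier results of these data known. All 9 cytokine genes were named, with receptors, up to 3 called genes per list and comparison with the largest change, those of a direction with 5 or fewer calls in full, and the 3 most similar genes per tested cytokine. IRAK2, ZFP36L1 and CEBPB were singled out for their levels, and markers for the check of cell type, after values were seen. Some genes that the rule selects are not reported here. In the comparison of Dox plus inhibitor with inhibitor, same-numbered libraries had r = 0.133 to 0.549 over genes for the 3 pairs. Each was above 0.1, and on that basis the numbers were taken to pair these samples. Differently numbered pairs there ran from -0.434 to 0.154, and those at 0.154 and 0.138 exceeded the same-numbered pair 2 (0.133). The pairing is therefore uncertain, and the printed SE and p-values come from the fit without the block. In each other pair of groups at least 1 same-numbered pair was at or below 0.1, although for DMSO with inhibitor (0.686, 0.097 and 0.505) and with Dox plus inhibitor (0.475, 0.065 and 0.321) all were positive. Promoters are from RefSeq (GRCh38.p14) and gene positions and transcripts from GENCODE v29 (GRCh38). Alternatives comprised 21 planned settings and 2 chosen after seeing the data, which removed a trend in transcript length and GC content (loess span 0.3, on 11996 of 12649 genes).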

Additional observations from a re-analysis of the deposited data

Results flagged for a closer look

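The Dox change differed with and without the inhibitor, by the interaction test in limma, for 2 cytokine genes and 3 other named genes. IL11 had an interaction of 0.93, called in all 22 alternatives run for it (0.85 to 1.08, adjusted p = 0.00029 to 0.029). CSF1 had -0.51, and CSF1 stood just above DMSO with Dox but below inhibitor in the combined group. For the IL-1 signalling kinase gene IRAK2 the interaction was -0.73 (adjusted p = 0.004), and its libraries overlapped between DMSO and Dox and between no other groups. For IL18 it was -0.4 (adjusted p = 0.031), a call that ended without any one of 9 libraries (-0.41 to -0.36, adjusted p = 0.051 to 0.097), all except DMSO 3, Dox plus inhibitor 3 and inhibitor 1. For CAPN2 it was 0.44 (adjusted p = 0.0049), with Dox, inhibitor and combined means of 141, 134 and 137 FPKM beside 188 in DMSO.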

How the results depend on the processing

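Of 36 tests of a cytokine gene in a comparison, 27 were called. Of these, 27 kept their direction and 25 stayed called under every alternative run, the exceptions being CSF1 for Dox with the inhibitor and for the interaction. CSF1 with Dox alone passed the threshold without DMSO 1 (0.28) and with the length and GC trend removed (0.23). Among the other named genes, TIAL1 for Dox with the inhibitor (0.2) turned to -0.07 with the length and GC trend removed, without and with the block. Changes near 0 turned sign for the CSF2 interaction (0 with a pseudocount of 0.1) and for LIF in Dox plus inhibitor against DMSO (-0.03 without DMSO 3 and -0.02 without Dox plus inhibitor 1, in a range of -0.03 to 0.06 when a library was left out). The interaction was called for 1 cytokine gene after quantile normalization and for 1 to 2 when a library was left out.

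Counts over all genes moved more. With the replicate block, 3741 genes were called for Dox against DMSO (2269 without), 4548 for Dox with the inhibitor (2304) and 666 for the interaction (357), and the block ended none of the 27 calls. Pairing by number was taken for Dox with the inhibitor, where it is uncertain, and in the other comparisons it was not established. With both the block and the removal of the length and GC trend, 4055 genes were called for Dox, 5012 for Dox plus inhibitor against DMSO (3238) and 1084 for the interaction, where removal of the trend alone gave 807. Fitted on the 2 groups alone, Dox with the inhibitor had 1099. Leaving out a library gave 1388 to 2667 for Dox, 1128 to 2928 for Dox with the inhibitor and 174 to 420 for the interaction. The fit of 2 groups was not run for the interaction. The read depth is unknown, which limits IL1A, IL1B and CSF3, listed at 0 to 0.18 FPKM.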

Other observations

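Among relatives of the colony-stimulating factors, 3 of 9 listed genes were tested. The CSF1 receptor ligand gene IL34 was low, with 1.01 ± 0.221 FPKM in DMSO, 1.7 ± 0.291 in Dox, 1.65 ± 0.223 in inhibitor and 1.21 ± 0.235 in Dox plus inhibitor, whereas CSF1, the other ligand of that receptor, stayed near DMSO with Dox and was highest in inhibitor. IL34 was called for Dox (0.42, adjusted p = 0.032) and for the inhibitor (0.4, adjusted p = 0.023), but 6 and 3 of the 23 alternatives ended these calls. These included quantile normalization for Dox (0.34) and, for both comparisons, the omission of DMSO 3 (0.33 and 0.31). The omission of DMSO 2 (0.46), Dox 2 (0.35) or Dox 3 (0.43) ended the call for Dox, and that of inhibitor 1 (0.33) or inhibitor 2 (0.41) the call for the inhibitor. FLT3LG, a growth factor gene for dendritic cell precursors, fell with the inhibitor from 2.48 ± 0.677 to 1.3 ± 0.0709 FPKM (-0.58, adjusted p = 0.0057). KITLG, the stem cell factor gene, had group means from 3.48 to 6.81 FPKM and was called in none of the comparisons.

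IL18, an IL-1 family cytokine stored as a precursor in epithelial cells, was the one IL-1 family ligand at a high level, with 56.5 ± 3.54 FPKM in DMSO, 56.2 ± 1.12 in Dox, 87.3 ± 2.36 in inhibitor and 65.8 ± 4.52 in Dox plus inhibitor. It rose with the inhibitor (0.62, adjusted p = 1.8e-05) together with the gene of its soluble inhibitor IL18BP (0.62, adjusted p = 0.00091). IL33 and IL36A were listed at 0 in all 12 libraries, and IL1RN, the gene of the IL-1 receptor antagonist, was above 0 in 2 libraries.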
